A study of Arabidopsis thaliana with 45 samples.

Results

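The transcripts bound by several ribosomes were set against all transcripts of the same kind of seed, for dormant Arabidopsis thaliana seeds that had taken up water for 24 h. The comparison uses 5 of the 45 arrays of the study: 2 of polysomal RNA and 3 of total RNA, every array whose title names dormant seeds in water at 24 h with that RNA type. Every group of the study shares 1 genotype, the near-isogenic line NILDOG1-Cvi, in which a region of the accession Cvi around DOG1 sits in a Landsberg erecta background, and every array is of seed. Per the labels a replicate is a bulk of 8 plants, and RNA was extracted with TriPure and RNeasy columns and labelled with biotin for GeneChip arrays. The molecule field of the labels reads total RNA for all samples and the treatment text speaks of dry seeds, so RNA type and time were taken from the titles. For comparison, 3 further groups of the same line are used: dormant seeds in water at 6 h (3 polysomal and 3 total RNA arrays), non-dormant seeds in water at 24 h (3 and 3), and dormant seeds in cordycepin at 24 h (2 and 3). Cordycepin is an adenosine analogue used to block transcription, and the sources used here do not say how dormancy was lost in the non-dormant seeds.

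A polysome is an mRNA that carries several ribosomes, so the polysomal fraction is enriched in transcripts under translation, while total RNA also holds stored, nuclear and organellar transcripts. A dry seed carries many stored mRNAs, and a dormant seed that takes up water resumes protein synthesis without completing germination. DOG1 is a main determinant of seed dormancy in Arabidopsis, and the hormones abscisic acid (ABA) and gibberellin act in opposite directions on germination.

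The table holds log2 levels of 27827 probe sets, most of them named by a locus code, normalised together by the authors with RMA, which corrects background, equalises the arrays and sums the probes of each set. A polysomal minus total difference is therefore relative to the average transcript on the arrays and not an amount, and a smaller share of seeds or cells with a transcript on polysomes cannot be told apart from fewer copies on polysomes in each cell. Medians of the polysomal arrays were 4.05 and 3.97, and those of the total RNA arrays were 4.24, 4.26 and 4.23. Pearson correlations over all probe sets were 0.978 to 0.981 between arrays of 1 RNA type and 0.946 to 0.955 between arrays of different type. Calls rest on limma with p-values adjusted by the Benjamini-Hochberg method (threshold 0.05) and a spread estimated over all 16 groups of the study. The number of arrays, 2 against 3, limits the precision of every value. Without overlap between the 2 RNA types were 25.3% of probe sets with polysomal RNA higher and 20.5% with it lower.

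Polysomal and total RNA differed for 4607 of 27827 probe sets (16.6%). Of these, 2143 were higher in polysomal RNA (7.7% of those tested) and 2464 were lower (8.85%). The falls were larger than the rises. At least 2-fold, 1 on the log2 scale, separated 597 higher (2.15%) and 1903 lower (6.84%) called probe sets, and 414 were lower by at least 2 on the log2 scale against 2 higher by as much. The differences ran from -6.23 to 2.34 with a median of 0.06 and quartiles of -0.34 and 0.39. Among the 84 probe sets lower by at least 3 on the log2 scale, the median level was 2.68 in polysomal RNA and 6.42 in total RNA, and 53 of them had a polysomal mean under 3. Calls in the 2 directions were found at different levels: among the 5565 probe sets with a mean of 3.36 to 5.02 7.08% were higher and 19.3% lower, and among the 5566 with a mean of 6.82 to 12.54 12.8% were higher and 5.37% lower. Of the calls, 289 higher and 879 lower were kept when each of the 5 arrays in turn was left out, where a lone polysomal array is assumed to vary like the other groups. Without polysomal array 2 the calls were 706 higher and 1481 lower, and without polysomal array 1 they were 1287 and 1321. Centring each array on its median moved the median difference of all probe sets to 0.29 and the calls to 5380 higher and 1725 lower, so that 75.7% of calls were higher, against 46.5% on the deposited scale. The changes below are relative to the deposited scaling.

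**Figure D1:**
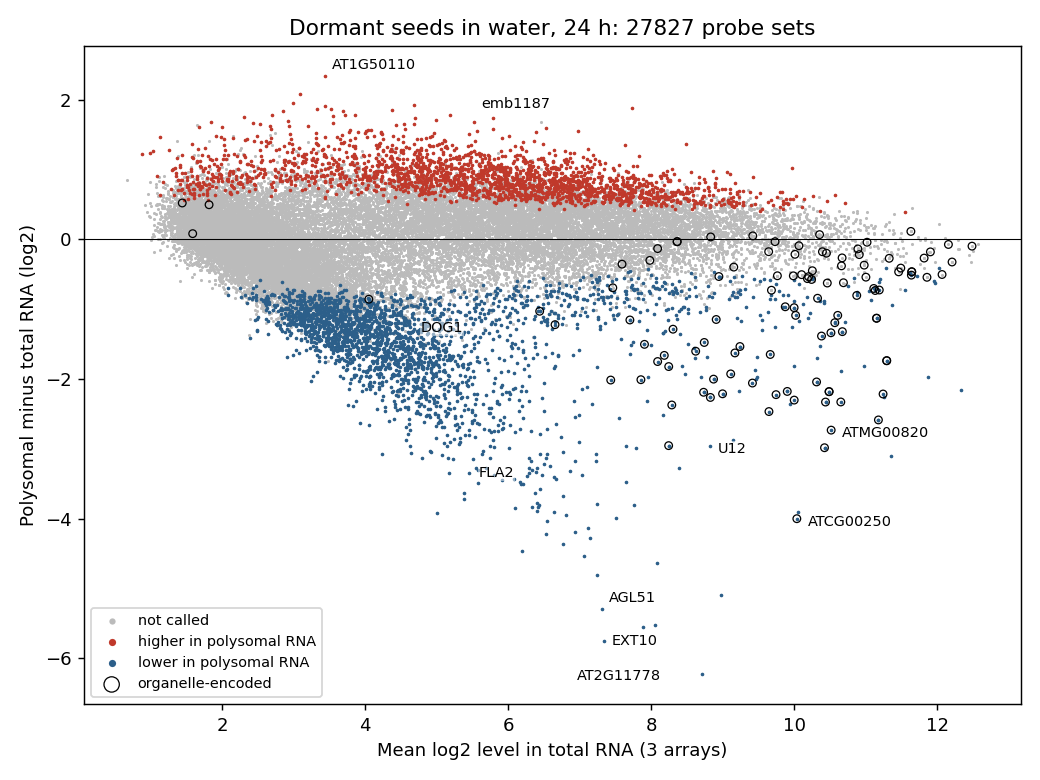
Polysomal minus total RNA difference (log2, vertical axis) against the mean log2 level in total RNA of 3 arrays (horizontal axis) for 27827 probe sets of dormant seeds in water at 24 h; red and blue points were called higher or lower by limma and open circles are organelle-encoded. Rises end at 2.34, while falls reach -6.23, and many organelle-encoded probe sets with high total RNA levels lie below 0.

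Among genes with a symbol, a mean of at least 5 over the 5 arrays and groups that do not overlap, the largest rises were in TXND9, emb1187, UBC3, rps15ab, TEX1, MT1A, ATG8H, GLTP1, SBP3, VAG2, CAK4 and GIP1, between 1.36 and 1.85 on the log2 scale. TXND9 (AT2G18990), which encodes a protein with a thioredoxin domain, had log2 levels of 6.27 and 6.17 in polysomal RNA, against 3.95, 4.57 and 4.59 in total RNA. Both polysomal arrays lay more than 1.5 above the highest total RNA array, and the difference was 1.85 ± 0.31 (SE, limma adjusted p = 7.77e-05). emb1187 (AT2G26830), a gene named for its embryo-defective mutant, stood at 7.15 and 7.24 in polysomal RNA, against 5.59, 5.55 and 5.41 in total RNA, so its 5 arrays fell into tight and separate groups (1.68 ± 0.19, adjusted p = 3.89e-08 by limma). UBC3 (AT5G62540), a ubiquitin-conjugating enzyme, had 7.17 and 7.56 in polysomal RNA, against 5.79, 5.64 and 5.93 in total RNA (1.58 ± 0.24). The ribosomal protein gene rps15ab (AT2G19720) had 6.18 and 6.09 in polysomal RNA, against 5.53, 4.04 and 4.11 in total RNA, and its total RNA array 1 stood apart from the other two (1.57 ± 0.36).

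TEX1 (AT5G56130), a subunit of the THO complex that links transcription to mRNA export, was at 7.36 and 7.62 in polysomal RNA, against 5.97, 6.12 and 5.93 in total RNA, with no overlap (1.48 ± 0.22, limma adjusted p = 1.13e-05). ATG8H (AT3G06420), an autophagy protein of the ATG8 family, was at 6.47 and 6.13 in polysomal RNA, against 5.15, 4.53 and 4.85 in total RNA (1.45 ± 0.29). CAK4 (AT1G66750), a kinase that activates cyclin-dependent kinases, was at 6.38 and 6.43 in polysomal RNA, against 4.96, 5.34 and 4.80 in total RNA (1.37 ± 0.20). In all 3 the lowest polysomal array was above the highest total RNA array, and each kept its limma call without each array in turn, as did TXND9, emb1187, UBC3, rps15ab, GLTP1 (glycolipid transfer protein, 1.45) and GIP1 (gamma-tubulin complex binding protein, 1.36). The other 3 did not. MT1A (metallothionein, 1.47) had an adjusted p of 0.0704 without polysomal array 1, 0.0856 without polysomal array 2 and 0.0766 without total RNA array 2. SBP3 (selenium-binding protein, 1.41) had polysomal levels of 5.98 and 7.08 and an adjusted p of 0.225 without polysomal array 2, and VAG2 (subunit G of the vacuolar ATPase, 1.39) had 0.106 without polysomal array 1. In the RefSeq annotation emb1187, UBC3, rps15ab, TEX1 and MT1A each overlap a neighbouring locus, so their probes may also detect transcripts of that neighbour.

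**Figure D2:**
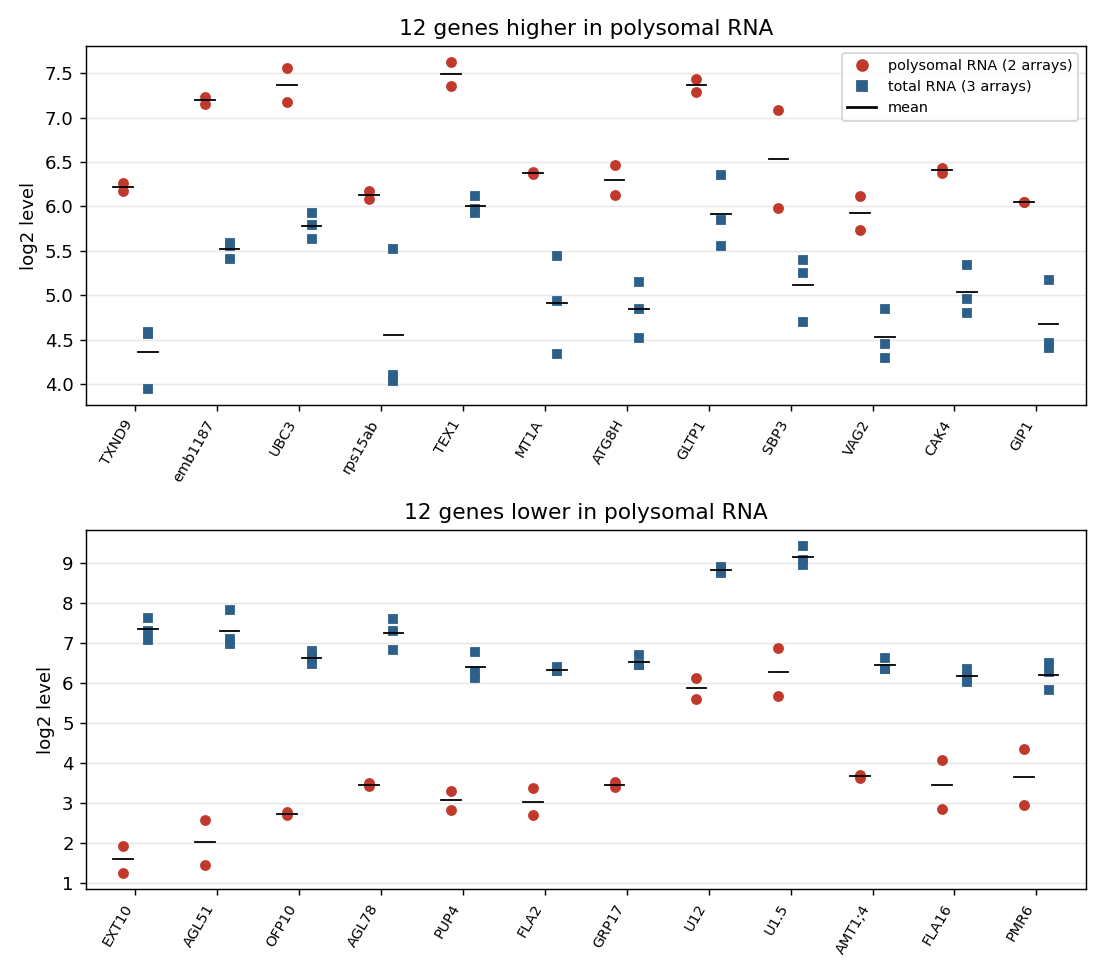
Log2 level (vertical axis) of the 12 named genes with the largest rises (upper panel) and the 12 with the largest falls (lower panel), with the 2 polysomal arrays left of the 3 total RNA arrays and a bar at each mean. Polysomal and total RNA arrays do not overlap in any of the 24, as the rule for naming required, and the gap reaches -5.75 in EXT10.

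The largest falls by the same rule were in EXT10, AGL51, OFP10, AGL78, PUP4, FLA2, GRP17, U12, U1.5, AMT1;4, FLA16 and PMR6. EXT10 (AT5G06640) encodes an extensin, a hydroxyproline-rich protein of the cell wall. Its log2 levels were 1.25 and 1.93 in polysomal RNA, against 7.09, 7.64 and 7.30 in total RNA, a difference of -5.75 ± 0.32 (limma adjusted p = 4.03e-15), so a transcript well above the array median in total RNA was near the lowest values in polysomal RNA. AGL51 (AT4G02235), a MADS-box gene, had 1.45 and 2.58 in polysomal RNA, against 7.11, 7.84 and 6.98 in total RNA (-5.30 ± 0.53), and AGL78 (AT5G65330), another MADS-box gene, had 3.41 and 3.50 in polysomal RNA, against 7.30, 6.82 and 7.61 in total RNA (-3.79 ± 0.39). The groups of both genes were at least 3 apart.

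OFP10 (AT5G22240), of the OVATE family of transcriptional repressors, had 2.76 and 2.69 in polysomal RNA, against 6.46, 6.80 and 6.63 in total RNA (-3.91 ± 0.36). The purine permease gene PUP4 (AT1G30840) was at 3.31 and 2.82 in polysomal RNA, against 6.14, 6.76 and 6.27 in total RNA (-3.33 ± 0.33), and GRP17 (AT5G07530), a glycine-rich oleosin-like protein known from the pollen coat, was at 3.40 and 3.52 in polysomal RNA, against 6.71, 6.46 and 6.44 in total RNA (-3.08 ± 0.32). The ammonium transporter gene AMT1;4 differed by -2.78 ± 0.45 and PMR6, a pectate lyase-like gene, by -2.56 ± 0.35. The 2 polysomal arrays of PMR6 were far apart (4.36 and 2.94), but both lay below its total RNA arrays (5.84, 6.28 and 6.50). All 12 falls kept their limma calls without each array in turn. EXT10, FLA16 and PMR6 overlap another annotated locus in RefSeq.

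Some larger falls were in loci for which RefSeq gives no symbol; these were chosen after their values were seen. AT2G11778 had 2.39 and 2.58 in polysomal RNA, against 8.64, 8.93 and 8.57 in total RNA, the largest difference of all probe sets (-6.23 ± 0.32, limma adjusted p = 6.99e-16). AT1G55990 (-5.56 ± 0.42), AT4G38401 (-5.52 ± 0.38) and AT4G08370 (-5.09 ± 0.41) were also lower by more than 5, and no polysomal array of these reached a total RNA array. On the higher side, AT1G50110 had 5.65 and 5.89 in polysomal RNA, against 3.24, 3.74 and 3.31 in total RNA (2.34 ± 0.35, adjusted p = 8.81e-06) and AT3G09800 had 5.10 and 5.22 in polysomal RNA, against 2.76, 2.75 and 3.74 in total RNA (2.08 ± 0.37), the only rises of at least 2 on the log2 scale.

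Extensins and fasciclin-like arabinogalactan proteins (FLA), both secreted glycoproteins of the cell wall, recurred among the falls, and the counts that follow describe families chosen after that was seen. All 6 probe sets with an EXT symbol were called lower, with a median difference of -1.98, against 8.85% called lower and a median of 0.06 over all probe sets. EXT6 had 1.57 and 0.60 in polysomal RNA, against 4.20, 5.57 and 5.23 in total RNA (-3.91 ± 0.49), EXT13 0.97 and 1.92 in polysomal RNA, against 3.23, 4.10 and 4.16 in total RNA (-2.39 ± 0.51) and EXT4 2.06 and 2.10 in polysomal RNA, against 3.29, 3.98 and 3.70 in total RNA (-1.58 ± 0.35). EXT3 (-1.18) and EXT12 (-0.87) had smaller falls, and 3 of the 6 calls (EXT10, EXT6 and EXT4) were kept without each array in turn. EXT13 had a limma adjusted p of 0.0532 without polysomal array 1, EXT12 had 0.245, 0.0537 and 0.0732 without polysomal array 1 and total RNA arrays 1 and 2, and EXT3 had 0.296, 0.105 and 0.067 without polysomal array 2 and total RNA arrays 2 and 3. Extensins share repeats, so 1 probe set may detect several of them. Of 19 FLA genes 13 were called lower (68.4%, against 8.85% of all probe sets) and 0 higher, and all 19 had a difference below 0, with a median of -1.22. FLA2 (AT4G12730) had 2.69 and 3.37 in polysomal RNA, against 6.29, 6.41 and 6.31 in total RNA (-3.31 ± 0.34), FLA11 2.50 and 2.24 in polysomal RNA, against 4.15, 5.25 and 5.27 in total RNA (-2.52 ± 0.34) and FLA16 4.06 and 2.84 in polysomal RNA, against 6.12, 6.36 and 6.03 in total RNA (-2.71 ± 0.45). No overlap was found in these 3. The other 6 did not pass. FLA8, the FLA gene with the highest level here, had 8.14 and 8.12 in polysomal RNA, against 8.72, 8.84 and 8.84 in total RNA, without overlap (-0.67 ± 0.27, limma adjusted p = 0.0797), and FLA17 was at -0.30 ± 0.32. Without each array in turn 6 of the 13 FLA calls were kept. Of 30 arabinogalactan protein genes with an AGP symbol 5 were called lower (16.7%, against 8.85% of all probe sets) and 0 higher, with a median of -0.37. Not all of these calls were kept without each array in turn. The median AGP level in total RNA was 3.60, and 19.3% of all probe sets with a mean of 3.36 to 5.02 were called lower.

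Transcripts encoded in the mitochondrion were lower in polysomal RNA as a group. Of 92 probe sets with mitochondrial locus codes 54 were called lower (58.7%) and 0 higher, against 8.85% and 7.7% of all probe sets, and 88 had a difference below 0, with a median of -0.85 against 0.06. Their mean level was 8.41 and 8.62 on the polysomal arrays, against 9.45 to 9.65 on the total RNA arrays. ATMG00820 had 7.78 and 7.78 in polysomal RNA, against 10.21, 10.57 and 10.77 in total RNA, ATMG00940 had 8.62 and 8.57 in polysomal RNA, against 11.07, 11.19 and 11.27 in total RNA and ATMG00840 had 7.41 and 6.95 in polysomal RNA, against 9.40, 9.60 and 9.94 in total RNA, with differences of -2.73 ± 0.19, -2.59 ± 0.20 and -2.47 ± 0.22. ATMG00800 showed the largest difference (-2.95 ± 0.26). The polysomal arrays lay at least 1.9 below the total RNA arrays in each of these. Some mitochondrial probe sets at high levels hardly differed. ATMG01190 had 12.37 and 12.40 in polysomal RNA, against 12.47, 12.46 and 12.53 in total RNA, and ATMG01120 had 12.01 and 12.16 in polysomal RNA, against 12.14, 12.17 and 12.16 in total RNA. Both were picked after their values were seen. Of the 54 calls 40 were kept without each array in turn, and the count ran from 32 to 68 over the alternatives tried.

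Of 15 plastid-encoded probe sets 5 were called lower (33.3%, against 8.85% of all probe sets) and 0 higher, with a median of -0.46, and the 5 were kept without each array in turn. ATCG00250 had 5.46 and 6.62 in polysomal RNA, against 9.95, 10.13 and 10.02 in total RNA (-4.0 ± 0.37, limma adjusted p = 7.51e-10), and ATCG00240 had 7.01 and 7.87 in polysomal RNA, against 10.34, 10.52 and 10.42 in total RNA (-2.98 ± 0.37). Their polysomal array 1 was the lower of the 2 in both. ATCG00990 and ATCG01140 carry identical values on every array and count as 1 measurement (-2.18 ± 0.23). Organelle ribosomes are of another type than those of the cytosol, and polysomal RNA as labelled does not say which were recovered. Identical values were common here: 182 probe sets form 88 sets with the same values on all 45 arrays. Among them 40 nuclear loci, 35 of them on chromosome 2, have the values of an organelle probe set. The organelle probe sets shared in this way were 33 mitochondrion-encoded and 8 plastid-encoded ones. With each set of identical mitochondrial probe sets counted once, 52 of 90 were lower. ATMG00800, ATMG00940 and ATCG00240 are among those shared with a nuclear locus, and their signal cannot be assigned to either copy.

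The nuclear noncoding RNAs of the spliceosome and nucleolus showed falls too. Small nucleolar RNAs guide modification of ribosomal RNA in the nucleolus, and 23 of 68 probe sets for them were called lower (33.8%, against 8.85% of all probe sets) and 0 higher, with a median of -0.82. The 3 lowest, named after their values were seen, were AT1G03935 (4.04 and 5.17 in polysomal RNA, against 6.96, 6.94 and 6.85 in total RNA, -2.32 ± 0.35), AT2G05765 (-2.17 ± 0.52) and AT5G13225 (-1.97 ± 0.38). Polysomal array 1 was the lower of the 2 in each of them, and AT2G05765 had an adjusted p of 0.157 without that array. Of the 23 calls 6 were kept without each array in turn, the count ran from 7 to 28 over the alternatives, and 18 of the 68 loci overlap another annotated locus. Among 13 small nuclear RNAs, parts of the spliceosome, 4 were lower (30.8%, against 8.85% of all probe sets) and 0 higher. Not all of these 4 calls were kept without each array in turn. U12 (AT1G61275), of the minor spliceosome, had 5.59 and 6.14 in polysomal RNA, against 8.83, 8.89 and 8.74 in total RNA (-2.96 ± 0.37, adjusted p = 5.16e-07). U1.5 (AT1G08115), a copy of the U1 RNA, had 5.68 and 6.87 in polysomal RNA, against 8.96, 9.42 and 9.07 in total RNA (-2.88 ± 0.44), and U6acat had 4.29 and 4.76 in polysomal RNA, against 6.01, 6.31 and 6.38 in total RNA (-1.71 ± 0.40). The arrays did not overlap in any of the 3, but without polysomal array 1 the adjusted p of U6acat was 0.0619.

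Long noncoding RNAs as annotated did not stand apart in this way. Of 222 probe sets 10 were higher and 16 lower (7.21%), with a median of 0.02. In 165 probe sets annotated as other noncoding RNA 5 were higher and 15 lower (median 0.03). Among these AT1G15405 had 7.59 and 8.93 in polysomal RNA, against 11.29, 11.56 and 11.23 in total RNA (-3.10 ± 0.53), and AT3G41761 had 9.73 and 10.62 in polysomal RNA, against 11.95, 12.55 and 12.50 in total RNA (-2.16 ± 0.34). Both had some of the highest total RNA levels of the table, and both overlap another locus. For protein-coding loci the counts were 2096 higher and 2255 lower of 26486 (median 0.07). Transfer RNA probe sets that do not share values with an organelle probe set gave 5 lower and 0 higher of 52.

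**Figure D3:**
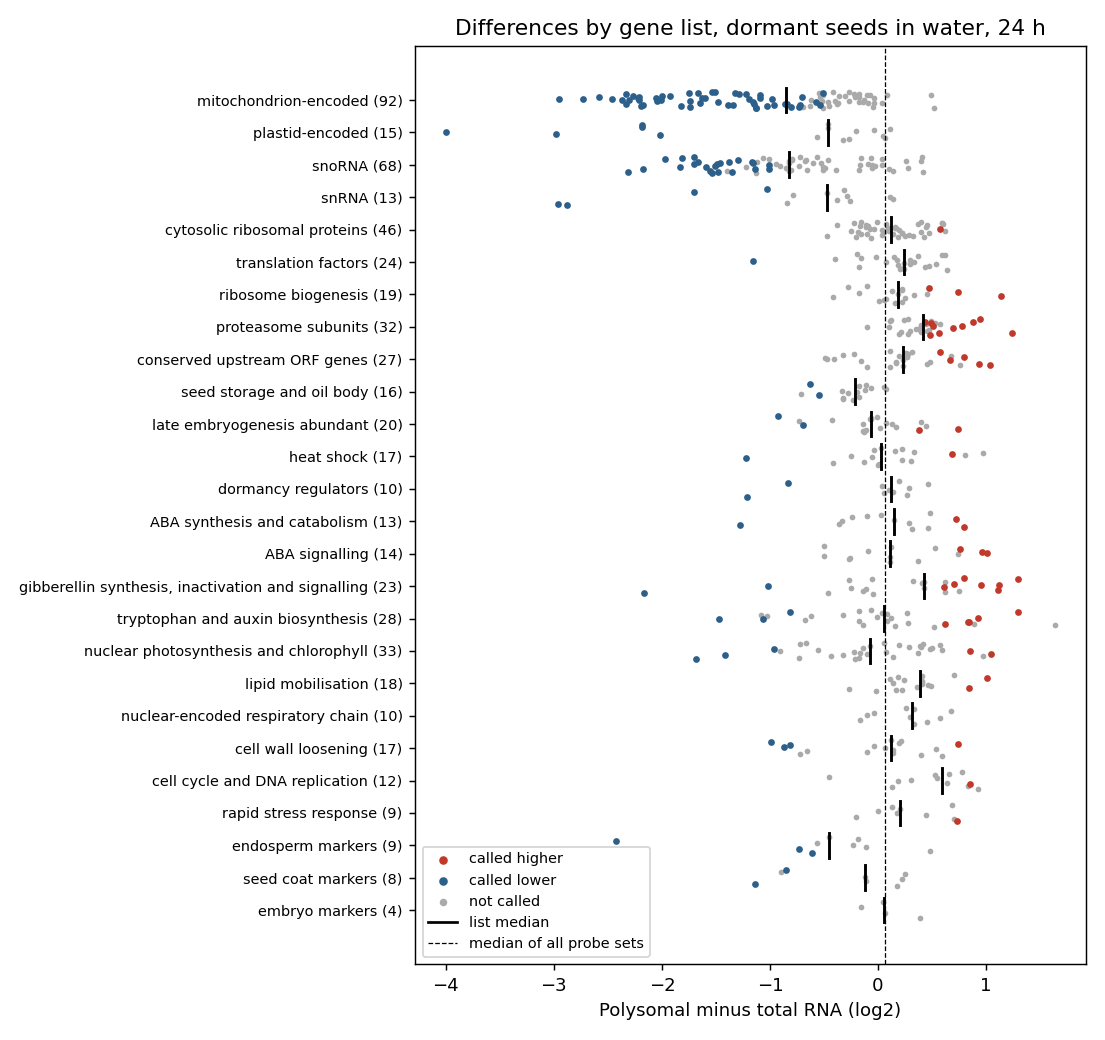
Polysomal minus total RNA difference (log2, horizontal axis) of every measured member of each gene list (rows, with the number of members), coloured by limma call, with a bar at the list median and a dashed line at the median of all probe sets. Mitochondrion-encoded transcripts and small nucleolar RNAs lie mostly left of the line (medians -0.85 and -0.82) and proteasome subunits mostly right of it (0.42).

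On the deposited scale few genes of the translation machinery were called. The shares were 2.17% higher and 0% lower for ribosomal proteins, and 0% and 4.17% for translation factors, against 7.7% and 8.85% of all probe sets. Of 46 cytosolic ribosomal protein genes 1 was called higher (AT5G52650, 0.57 ± 0.17) and 0 lower, with a median of 0.12 and a range of -0.48 to 0.62. In 17 of the 46 the polysomal arrays lay above the total RNA arrays without overlap, against 25.3% of all probe sets. In 5 they lay below, against 20.5%. AT5G52650 had 10.59 and 10.81 in polysomal RNA, against 10.18, 10.12 and 10.09 in total RNA, and its limma adjusted p was 0.201 without polysomal array 2, 0.0523 without total RNA array 2 and 0.0589 without total RNA array 3. Of 24 translation factor genes 0 were higher and 1 was lower (median 0.24), but in 12 the polysomal arrays lay above the total RNA arrays without overlap (against 25.3% of all probe sets), and 0 to 10 were higher over the alternatives, with 10 after centring each array on its median. That one, ELF5A-1 (AT1G13950), a copy of initiation factor 5A, was at low levels of 1.51 and 2.24 in polysomal RNA, against 2.87, 3.45 and 2.78 in total RNA (-1.16 ± 0.34, adjusted p = 0.0168), and the adjusted p without polysomal array 1 was 0.247 and without total RNA array 2 0.0875. EIF4E, the cap-binding factor, had 9.23 and 8.93 in polysomal RNA, against 8.43, 8.34 and 8.54 in total RNA and did not pass (0.64 ± 0.24, adjusted p = 0.0571).

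Ribosome biogenesis genes gave 3 higher (15.8%, against 7.7% of all probe sets) and 0 lower of 19 (median 0.19). Each of these 3 overlaps a neighbouring annotated locus in RefSeq, so its probes may also detect transcripts of that neighbour. The list had a median level of 9.40 in total RNA, and 12.8% of all probe sets with a mean of 6.82 to 12.54 were called higher. AT3G15460, fixed in that list, had 8.20 and 7.64 in polysomal RNA, against 7.02, 6.70 and 6.63 in total RNA (1.14 ± 0.25, limma adjusted p = 0.00172, and 0.0772 without polysomal array 1). The RNA helicase gene RH36 (0.74 ± 0.23) and REIL2, which acts in maturation of the large ribosomal subunit (0.47 ± 0.16), were the others, and without polysomal array 1 their adjusted p was 0.304 and 0.158. REIL2 was also lost without polysomal array 2, where its difference was 0.48, and without total RNA array 1 or 3 (0.1465 and 0.0624). RH36 was also lost without total RNA array 2 or 3 (highest of these 0.104).

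Proteasome subunit genes rose for 10 of 32 members (31.2%, against 7.7% of all probe sets), 0 were called lower, and 31 of 32 had a difference above 0 with a median of 0.42. Their median level in total RNA was 8.68, and 12.8% of all probe sets with a mean of 6.82 to 12.54 were called higher. The proteasome degrades proteins tagged with ubiquitin. PAB1 (AT1G16470), a subunit of the core particle, had 8.0 and 8.19 in polysomal RNA, against 6.86, 7.11 and 6.60 in total RNA (1.24 ± 0.27, limma adjusted p = 0.00153), and PBG1, another core subunit, had 9.92 and 10.03 in polysomal RNA, against 9.13, 9.39 and 9.31 in total RNA (0.70 ± 0.16). These 2 calls were kept without each array in turn. The regulatory particle subunits EMB2719 (0.94 ± 0.21), RPN6 (0.88 ± 0.23) and RPT4A (0.77 ± 0.20) had higher levels on polysomal array 2 than on array 1, and without array 2 their adjusted p was 0.167, 0.227 and 0.271. RPN12a (0.43), PAC1 (0.57), PBA1 (0.48), RPT3 (0.51) and AT2G32730 (0.49) passed with smaller differences. Without polysomal array 2 RPN12a had 0.172, PAC1 0.115, PBA1 0.293 and AT2G32730 0.426, and without polysomal array 1 RPT3 had 0.157 and RPN12a 0.0555. Total RNA arrays also decided some: RPN12a had 0.0996 and AT2G32730 0.107 without array 1, PBA1 0.0757 and AT2G32730 0.0508 without array 2, and PBA1 0.055 and AT2G32730 0.114 without array 3. In 27 of the 32 the polysomal arrays lay above the total RNA arrays without overlap, against 25.3% of all probe sets. PBG1, RPT3 and RPN12a each overlap another annotated locus in RefSeq. The number of proteasome members called higher ran from 1 to 24 over the alternatives tried.

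Genes with a conserved upstream open reading frame in the leader of their mRNA gave 5 higher and 0 lower of 27 (18.5%, against 7.7% of all probe sets higher), with a median of 0.23, and 0 to 8 were higher over the alternatives. Such a reading frame can stall ribosomes before the main coding region. bZIP44 (AT1G75390), a transcription factor gene, had 6.02 and 6.04 in polysomal RNA, against 4.62, 5.07 and 5.28 in total RNA (1.04 ± 0.27, limma adjusted p = 0.00808), and the kinase gene MAPKKK20 had 5.93 and 6.41 in polysomal RNA, against 5.25, 5.44 and 5.43 in total RNA (0.80 ± 0.22). AT5G09460 (0.94 ± 0.26), the heat shock factor gene HSFB1 (0.66 ± 0.23) and VTC2, which acts in ascorbate synthesis (0.57 ± 0.19), were the others. Each of the 5 was lost without polysomal array 2, with adjusted p values of 0.0658, 0.216, 0.0509, 0.198 and 0.219 in the order named, and all but MAPKKK20 also without polysomal array 1, with 0.0521, 0.102, 0.133 and 0.0856. AT5G09460, HSFB1 and VTC2 were further lost without total RNA array 2 (0.0984, 0.0728 and 0.104), and HSFB1 and VTC2 without total RNA array 3 (0.217 and 0.125). The probe sets of bZIP44, AT5G09460 and HSFB1 have the same values on all 45 arrays as other annotated loci (AT1G75388, AT5G09461 to AT5G09463, and AT4G36988). Their signal cannot be assigned to the named locus alone.

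Of 16 seed storage and oil body genes 2 were called lower (12.5%, near the 8.85% of all probe sets) and 0 higher. The median was -0.21 with a range of -0.72 to 0.08, and 0 to 4 were lower over the alternatives. PAP85 (AT3G22640), a vicilin-like storage protein gene, had 11.46 and 11.23 in polysomal RNA, against 11.93, 11.95 and 12.03 in total RNA (-0.63 ± 0.14, limma adjusted p = 0.00131, and 0.0556 without polysomal array 2). SESA1, a 2S albumin gene, had 10.47 and 10.12 in polysomal RNA, against 10.74, 10.93 and 10.86 in total RNA (-0.55 ± 0.15, and 0.239 without polysomal array 2 and 0.0504 without total RNA array 2). The list, whose members are defining transcripts of seed, had a median level of 11.1 in total RNA.

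Heat shock genes were called in 5.88% in each direction, and late embryogenesis abundant genes, whose products protect dry tissue, in 10%. Both are near the 7.7% higher and 8.85% lower of all probe sets. LEA14 (8.79 and 8.86 in polysomal RNA, against 8.12, 8.08 and 8.05 in total RNA, 0.74 ± 0.19) and LEA4-5 (0.38 ± 0.14) were higher, and AT5G44310 (9.46 and 8.93 in polysomal RNA, against 10.05, 10.09 and 10.21 in total RNA, -0.93 ± 0.25) and ECP63 (-0.69 ± 0.18) were lower, of 20 members with a median of -0.06. Without polysomal array 2 the limma adjusted p of these 4 was 0.0735, 0.114, 0.19 and 0.132 in the order named, and LEA4-5 was lost whichever array was left out (highest 0.243, without polysomal array 1). Of 17 heat shock genes HSP23.6-MITO (0.68 ± 0.21) was higher and HSP18.2 (-1.22 ± 0.37) lower, and without polysomal array 1 their adjusted p was 0.11 and 0.354. Both were also lost without total RNA array 2 (0.082 and 0.124) or 3 (0.116 and 0.0583), and HSP23.6-MITO without polysomal array 2 (0.117).

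DOG1 (AT5G45830) was lower in polysomal RNA, with log2 levels of 3.49 and 3.45 in polysomal RNA, against 4.47, 4.85 and 4.72 in total RNA. The polysomal arrays nearly coincided and lay below every total RNA array, and the limma call (-1.21 ± 0.30, adjusted p = 0.00458) was kept without each array in turn. At 6 h dormant seeds had 6.19, 6.19 and 5.83 in polysomal RNA, against 5.95, 5.31 and 5.58 in total RNA, a difference of 0.46 ± 0.27. The 24 h difference minus the 6 h difference was -1.67 ± 0.40 and did not pass over all probe sets (limma adjusted p = 0.239). In non-dormant seeds at 24 h DOG1 was also called lower, with 3.24, 3.41 and 3.38 in polysomal RNA, against 3.90, 4.44 and 3.98 in total RNA (-0.76 ± 0.27, limma adjusted p = 0.049). The dormant minus non-dormant value was -0.45 ± 0.40 and was not called. Both polysomal levels of DOG1 in dormant seeds at 24 h lay below the medians of their arrays (4.05 and 3.97).

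Of the 10 dormancy regulators ABI3 was the other one called lower, and 0 were higher. The share called lower was 20%, against 8.85% of all probe sets. ABI3 (AT3G24650), a transcription factor of seed maturation and ABA response, had 8.98 and 8.20 in polysomal RNA, against 9.36, 9.44 and 9.46 in total RNA (-0.83 ± 0.25, limma adjusted p = 0.0196). Its polysomal array 2 was clearly below array 1, and the adjusted p was 0.393 without array 2 and 0.0505 without total RNA array 3. The median of the 10 was 0.12.

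Among 13 genes of ABA synthesis and catabolism 2 were higher (15.4%) and 1 lower (7.69%), against 7.7% and 8.85% of all probe sets. All 3 act in synthesis. NCED3 (AT3G14440), of the 9-cis-epoxycarotenoid dioxygenases that cleave the carotenoid precursor, had 3.25 and 3.55 in polysomal RNA, against 4.59, 4.96 and 4.48 in total RNA (-1.28 ± 0.34, limma adjusted p = 0.00828). NCED5 (AT1G30100), of the same family, ran the other way with 8.0 and 8.53 in polysomal RNA, against 7.40, 7.49 and 7.51 in total RNA (0.80 ± 0.24, adjusted p = 0.0206). ABA3, the molybdenum cofactor sulfurase needed for the last step, had 5.65 and 6.05 in polysomal RNA, against 5.16, 5.14 and 5.10 in total RNA (0.72 ± 0.23). Groups did not overlap in any of the 3. The adjusted p was 0.0928 for NCED3 without polysomal array 1, 0.29 for NCED5 and 0.285 for ABA3 without polysomal array 2, 0.0503 for NCED5 without total RNA array 1, and 0.0607 and 0.0668 for ABA3 without total RNA arrays 2 and 3.

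Of 14 ABA signalling genes 3 were higher (21.4%, against 7.7% of all probe sets) and 0 lower (median 0.12). Their median level in total RNA was 6.30, and 14.1% of all probe sets with a mean of 5.02 to 6.82 were called higher. SNRK2.2 (AT3G50500) and SNRK2.3 (AT5G66880) encode kinases that carry the ABA signal. SNRK2.2 had 6.49 and 6.41 in polysomal RNA, against 5.24, 5.60 and 5.48 in total RNA (1.01 ± 0.19, limma adjusted p = 0.000406), and SNRK2.3 had 8.36 and 8.91 in polysomal RNA, against 7.60, 7.58 and 7.83 in total RNA (0.96 ± 0.19, adjusted p = 0.000383, and 0.0524 without polysomal array 2). The receptor gene PYL2 was at 0.76 ± 0.22, with an adjusted p of 0.106 without polysomal array 2, 0.0651 without array 1 and 0.095 without total RNA array 2. SNRK2.3 overlaps other annotated loci.

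**Figure D4:**
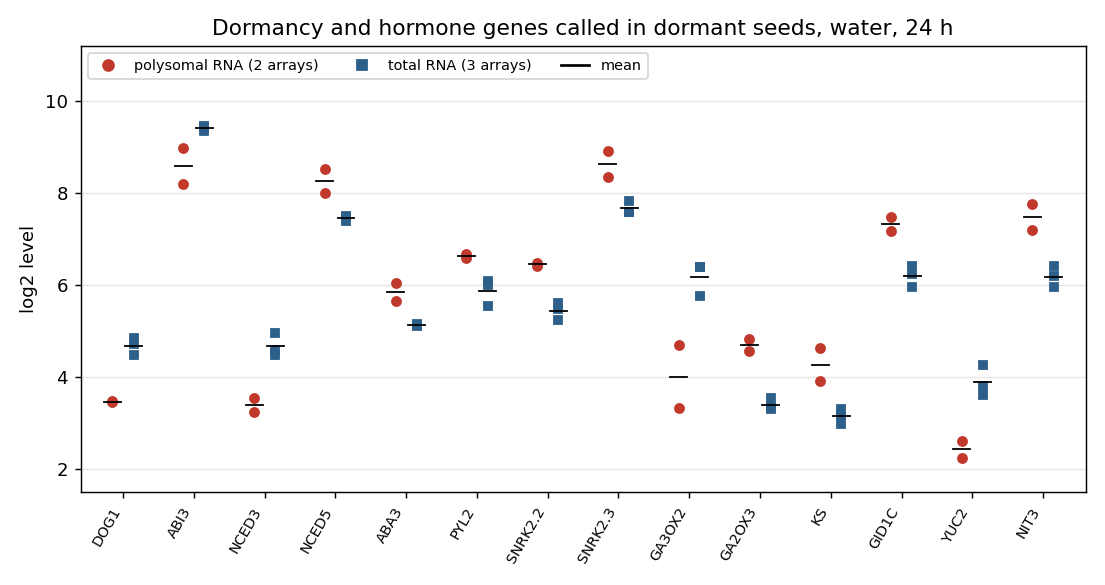
Log2 level (vertical axis) of 14 dormancy, ABA, gibberellin and auxin genes that limma called in dormant seeds in water at 24 h, with the 2 polysomal arrays left of the 3 total RNA arrays and a bar at each mean. DOG1, ABI3, NCED3, GA3OX2 and YUC2 lie lower in polysomal RNA and the other 9 higher, and the polysomal arrays of GA3OX2 (4.71 and 3.32) are the farthest apart.

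Gibberellin genes gave 7 higher and 2 lower of 23, a larger share higher (30.4%) than the 7.7% of all probe sets, with a median of 0.42, and 2 to 12 were higher over the alternatives. In synthesis, GA3OX2 (AT1G80340), the oxidase that makes the active hormone, was lower with 4.71 and 3.32 in polysomal RNA, against 5.75, 6.40 and 6.38 in total RNA (-2.17 ± 0.53, limma adjusted p = 0.00433, and 0.164 without polysomal array 2), and the ent-kaurene synthase gene KS was higher with 4.62 and 3.91 in polysomal RNA, against 3.19, 2.98 and 3.31 in total RNA (1.11 ± 0.30, and 0.195 without polysomal array 1). The oxidases that inactivate gibberellin were higher for GA2OX3 (4.56 and 4.83 in polysomal RNA, against 3.35, 3.30 and 3.55 in total RNA, 1.29 ± 0.33) and GA2OX6 (0.80 ± 0.25), and without polysomal array 2 they had 0.0851 and 0.249. GA2OX6 also had 0.108 without total RNA array 2.

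The 3 gibberellin receptor genes did not move alike. GID1C (AT5G27320) had 7.17 and 7.48 in polysomal RNA, against 5.97, 6.23 and 6.41 in total RNA (1.12 ± 0.21, limma adjusted p = 0.000204) and was the only gibberellin gene whose call was kept without each array in turn. GID1A (AT3G05120) had 9.68 and 9.99 in polysomal RNA, against 9.21, 9.18 and 9.29 in total RNA (0.61 ± 0.16), while GID1B (AT3G63010), at a lower level, had 3.08 and 2.94 in polysomal RNA, against 4.11, 4.0 and 3.99 in total RNA (-1.02 ± 0.36, adjusted p = 0.0457). GID1A had an adjusted p of 0.177 without polysomal array 2, and GID1B missed the threshold whichever array was left out (highest 0.205, without polysomal array 2). SLY1, the F-box protein that targets DELLA repressors, was at 0.95 ± 0.25 and the DELLA gene RGL2, a repressor of germination, at 0.71 ± 0.24. Without polysomal array 2 these had 0.118 and 0.456, and RGL2 had 0.0899 and 0.102 without total RNA arrays 1 and 2.

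Tryptophan and auxin biosynthesis genes gave 5 higher (17.9%) and 3 lower (10.7%) of 28, against 7.7% and 8.85% of all probe sets (median 0.06). In the tryptophan branch TSB1 (AT5G54810) and TSB2 (AT4G27070), similar genes for the beta subunit of tryptophan synthase, were higher. TSB1 had 9.07 and 9.14 in polysomal RNA, against 8.24, 8.30 and 8.26 in total RNA (0.84 ± 0.18, limma adjusted p = 0.00142), and TSB2 had 8.15 and 8.48 in polysomal RNA, against 7.49, 7.40 and 7.56 in total RNA (0.83 ± 0.19, and 0.0851 without polysomal array 2). AT2G04400, a locus of that list with no symbol in RefSeq, was at 0.62 ± 0.18 and lost without either polysomal array (0.0828 without array 1 and 0.105 without array 2) or total RNA array 1 (0.0556). ASB1, for the anthranilate synthase beta subunit, had 3.20 and 3.38 in polysomal RNA, against 1.74, 1.47 and 1.74 in total RNA and did not pass (1.64 ± 0.67, adjusted p = 0.0885).

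The YUCCA flavin monooxygenase genes, which make auxin, differed among themselves. YUC2 (AT4G13260) had 2.60 and 2.25 in polysomal RNA, against 3.61, 3.81 and 4.27 in total RNA (-1.47 ± 0.25, limma adjusted p = 6.47e-05), and YUC3 was lower too (-1.06 ± 0.33), while YUC5 was higher at a very low level (2.90 and 2.88 in polysomal RNA, against 1.92, 2.0 and 1.96 in total RNA, 0.93 ± 0.24). YUC9 had 2.57 and 2.54 in polysomal RNA, against 2.84, 3.66 and 4.41 in total RNA and did not pass (-1.09 ± 0.40, adjusted p = 0.0559). Of the nitrilase genes NIT3 (AT3G44320) had 7.20 and 7.77 in polysomal RNA, against 6.41, 6.21 and 5.95 in total RNA (1.30 ± 0.22, adjusted p = 7.4e-05) and NIT4 was lower (-0.81 ± 0.29). YUC2, NIT3 and, in the tryptophan branch, TSB1 kept their calls without each array in turn. YUC3 had 0.155, 0.0775 and 0.0986 without polysomal array 1, polysomal array 2 and total RNA array 1, and YUC5 had 0.0504 and 0.0509 without polysomal arrays 1 and 2. NIT4 missed the threshold whichever array was left out (highest 0.246, without polysomal array 1).

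Nuclear genes of photosynthesis and chlorophyll synthesis were low in these seeds, with a median of 3.83 in total RNA. Of 33 such genes 2 were higher (6.06%) and 3 lower (9.09%), near the 7.7% and 8.85% of all probe sets. CAB2, a chlorophyll a/b binding protein gene with near-identical copies, had 1.85 and 1.81 in polysomal RNA, against 3.53, 3.23 and 3.79 in total RNA (-1.68 ± 0.37, limma adjusted p = 0.00141), and PSBO1, of the oxygen-evolving complex, had 3.38 and 3.70 in polysomal RNA, against 4.84, 5.33 and 4.69 in total RNA (-1.41 ± 0.31). PETC, the Rieske protein of the cytochrome complex, ran the other way with 6.11 and 6.23 in polysomal RNA, against 5.20, 4.70 and 5.47 in total RNA (1.05 ± 0.24). These 3 were kept without each array in turn. LHCB3 (-0.96) and HEMA1 (0.85) were not: LHCB3 had 0.313 without polysomal array 2, 0.0573 and 0.0998 without total RNA arrays 1 and 2, and HEMA1 had 0.34 without polysomal array 1, 0.0899 and 0.0964 without total RNA arrays 1 and 3.

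Lipid mobilisation genes, which turn seed oil into sugar, gave 2 higher and 0 lower of 18 (11.1%, against 7.7% of all probe sets higher), with a median of 0.39, and 0 to 11 were higher over the alternatives. CSY2, a peroxisomal citrate synthase gene, had 7.03 and 7.23 in polysomal RNA, against 5.85, 6.49 and 6.01 in total RNA (1.01 ± 0.27), and the acyl-CoA oxidase gene ACX1 had 7.29 and 7.95 in polysomal RNA, against 6.66, 6.77 and 6.90 in total RNA (0.84 ± 0.19), with limma adjusted p values of 0.0928 and 0.17 without polysomal array 2. Of 10 nuclear genes of the respiratory chain 0 were called, with a median of 0.31, but 0 to 7 were higher over the alternatives, with 7 after centring each array on its median. MGP1, a subunit of the mitochondrial ATP synthase, came nearest with 9.08 and 8.68 in polysomal RNA, against 8.24, 8.23 and 8.15 in total RNA (0.68 ± 0.24, adjusted p = 0.0529). The lipid mobilisation list had a median level of 9.20 in total RNA, and 12.8% of all probe sets with a mean of 6.82 to 12.54 were called higher.

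In the cell wall loosening list 1 of 17 was higher (5.88%) and 3 were lower (17.6%), against 7.7% and 8.85% of all probe sets. The mannanase genes were split: MAN5 had 4.78 and 4.97 in polysomal RNA, against 5.63, 5.68 and 5.75 in total RNA (-0.81 ± 0.22) and MAN6 4.40 and 5.08 in polysomal RNA, against 4.16, 3.94 and 3.91 in total RNA (0.74 ± 0.26). The limma adjusted p was 0.106 for MAN5 without polysomal array 1, and for MAN6 0.482 without polysomal array 2, 0.104 without total RNA array 2 and 0.113 without total RNA array 3. PME3, a pectin methylesterase gene (-0.99 ± 0.32), and XTH9, a xyloglucan-modifying enzyme gene (-0.87 ± 0.29), were lower at low levels, and had 0.162 and 0.285 without polysomal array 1, 0.0915 and 0.063 without array 2. PME3 had 0.162 without total RNA array 1 and XTH9 0.165 without total RNA array 3.

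Cell cycle and DNA replication genes gave 1 higher (8.33%, near the 7.7% of all probe sets) and 0 lower of 12. Their median was 0.59, and 0 to 8 were higher over the alternatives. MCM3, of the replicative helicase, had 5.46 and 5.15 in polysomal RNA, against 4.38, 4.73 and 4.26 in total RNA (0.85 ± 0.27, limma adjusted p = 0.028). It was lost without polysomal array 1 (0.205), polysomal array 2 (0.0666), total RNA array 1 (0.0658) or total RNA array 3 (0.0956). The clamp gene PCNA1 had 5.04 and 4.84 in polysomal RNA, against 3.64, 4.30 and 4.11 in total RNA and did not pass (0.92 ± 0.37, adjusted p = 0.08). Rapid stress response genes were called higher in 11.1% and lower in 0%, against 7.7% and 8.85% of all probe sets. Of 9 rapid stress response genes ZAT10, a zinc finger gene, was higher (0.73 ± 0.26, adjusted p = 0.0451), and was lost without polysomal array 1 (0.185), polysomal array 2 (0.146), total RNA array 2 (0.133) or total RNA array 3 (0.141).

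Markers of the tissues in a seed differed in part. Of 9 endosperm markers 3 were lower (33.3%, against 8.85% of all probe sets) and 0 higher, with a median of -0.46. Only the PHE1 call was kept without each array in turn, and the mean of the list was 3.05 to 3.23 over polysomal arrays, against 3.55 to 3.88 over total RNA arrays. PHE1 (AT1G65330), a MADS-box gene of early endosperm, had 1.63 and 1.85 in polysomal RNA, against 4.39, 4.79 and 3.32 in total RNA (-2.42 ± 0.43, limma adjusted p = 0.00012), and EPR1 (AT2G27380), an extensin-like gene of the endosperm and the only list member with a total RNA mean of at least 5, had 10.73 and 10.41 in polysomal RNA, against 11.10, 11.14 and 11.30 in total RNA (-0.61 ± 0.16). EPR1 had an adjusted p of 0.167 without polysomal array 2, and MINI3 (-0.73) missed the threshold whichever array was left out (highest 0.264, without polysomal array 1). Of 8 seed coat markers TT12 (-1.14 ± 0.40) and MUM2 (-0.85 ± 0.24) were lower, none had a total RNA mean of 5, and without polysomal array 2 they had 0.237 and 0.0871. Without polysomal array 1 they had 0.103 and 0.0628, and TT12 had 0.116 and 0.12 without total RNA arrays 1 and 2. The 2 seed coat calls are 25% of that list, against 8.85% of all probe sets called lower. The median level in total RNA was 3.07 for the endosperm list and 3.39 for the seed coat list. Lower calls were 13.2% of all probe sets with a mean of 2.41 to 3.36 and 19.3% of those with 3.36 to 5.02. Of 4 embryo markers 0 were called by limma. The part of tissue composition in the other differences was not tested.

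The same comparison was available in 3 other groups that share no array with this one. Polysomal and total RNA of dormant seeds at 6 h differed for 3573 higher (12.8%) and 3199 lower (11.5%) probe sets, those of non-dormant seeds at 24 h for 1898 (6.82%) and 2225 (8%), and those of dormant seeds in cordycepin for 1737 (6.24%) and 2204 (7.92%). Of the 2143 called higher here 64.4%, 46.1% and 41.4% were also higher in these 3 groups in turn, which is 38.6%, 52% and 51.1% of the calls there. For the 2464 lower ones the shares were 68.7%, 59.3% and 61.1% here and 52.9%, 65.7% and 68.3% there. Lower in all 4 groups were 1004 probe sets (40.7% of the calls here) and higher in all 4 were 464 (21.7%). Against 6 h, 2 probe sets called higher here were lower there and 2 called lower here were higher there, and for the other groups there was 1 such probe set each. Across the 27827 probe sets the differences had Pearson r of 0.78 with 6 h, 0.8 with non-dormant seeds and 0.81 with cordycepin, as a description over probe sets that share array scaling and are not independent.

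Few probe sets had a polysomal-total difference at 24 h that could be told from that at 6 h. Limma called 10 of 27827 (0.0359%), 8 with a higher difference at 24 h (0.0287%) and 2 with a lower one (0.00719%), while 1522 had an unadjusted p under 0.05. AGP31 (AT1G28290), an arabinogalactan protein gene, had 6.38 and 6.96 in polysomal and 7.46, 8.10 and 7.94 in total RNA at 24 h, against 3.15, 2.92 and 2.53 in polysomal and 5.96, 6.26 and 6.09 in total RNA at 6 h. Its level was higher at 24 h in both RNA types, and the polysomal deficit was smaller: -1.16 ± 0.29 at 24 h against -3.24 ± 0.26 at 6 h, a change of 2.08 ± 0.39 (limma adjusted p = 0.0198). SMXL5 (AT5G57130), of the SMAX1-LIKE family, had -0.44 ± 0.22 at 24 h against -1.99 ± 0.19 at 6 h (change 1.56 ± 0.29), and the long noncoding RNA AT3G22121, which overlaps the gene CWLP, -0.80 ± 0.27 against -2.77 ± 0.24 (change 1.98 ± 0.36).

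AT1G50110, the largest of these changes, had a difference of 2.34 ± 0.35 at 24 h against 0.03 ± 0.31 at 6 h, with 5.65 and 5.89 in polysomal and 3.24, 3.74 and 3.31 in total RNA, against 3.81, 3.11 and 2.79 in polysomal and 4.19, 2.29 and 3.15 in total RNA at 6 h (change 2.31 ± 0.46, limma adjusted p = 0.0453). AT3G62050 (2.3 ± 0.37), AT2G24310 (2.14 ± 0.35), AT1G32190 (2.14 ± 0.43) and GRP18 (2.04 ± 0.33) changed in the same direction. The other direction was seen in AT1G61610, with -3.30 ± 0.28 at 24 h against -1.09 ± 0.25 at 6 h (change -2.21 ± 0.37), and in AT1G69900, with -2.62 ± 0.28 against -0.46 ± 0.25 (change -2.16 ± 0.38). AT1G69900 had 2.10 and 2.70 in polysomal and 4.79, 5.15 and 5.13 in total RNA at 24 h, against 4.30, 4.34 and 4.28 in polysomal and 4.48, 4.91 and 4.92 in total RNA at 6 h. Its total RNA arrays of both times overlapped, and its polysomal arrays did not. Each of the 10 calls was lost without 1 of the 2 polysomal arrays of 24 h, and the highest adjusted p was 0.456 for AGP31 and AT1G50110 without array 2 and between 0.0619 and 0.231 for the other 8. On the arrays of the 4 groups alone 0 were called.

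**Figure D5:**
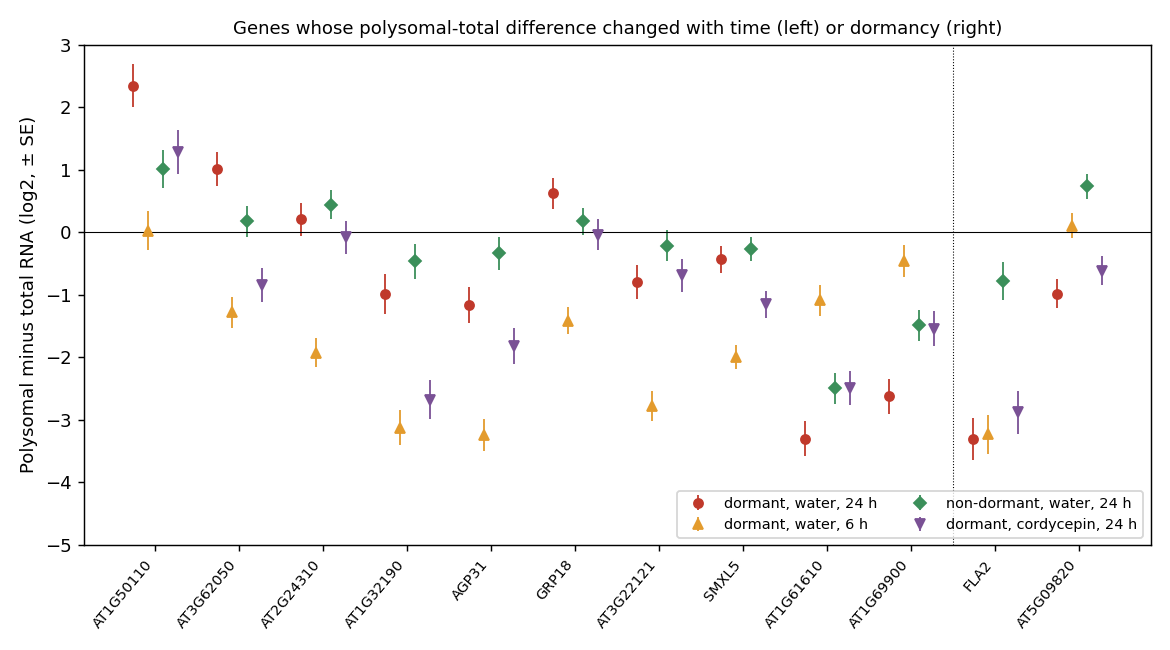
Polysomal minus total RNA difference (log2 ± SE from limma, vertical axis) in dormant seeds in water at 24 h, dormant seeds in water at 6 h, non-dormant seeds in water at 24 h and dormant seeds in cordycepin at 24 h, for the 10 probe sets whose difference changed between 24 h and 6 h (left of the dotted line) and the 2 whose difference changed between dormant and non-dormant seeds (right). In the first 8 the 24 h point lies above the 6 h point, and in AT1G61610 and AT1G69900 it lies below.

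Against non-dormant seeds at 24 h limma called 2 probe sets (0.00719%), both with a lower difference in dormant seeds, and 1120 had an unadjusted p under 0.05. FLA2 had 2.69 and 3.37 in polysomal and 6.29, 6.41 and 6.31 in total RNA of dormant seeds, against 6.99, 6.95 and 6.23 in polysomal and 7.48, 7.58 and 7.47 in total RNA of non-dormant seeds. Both RNA types were lower in dormant seeds without overlap, and the gap was wider in polysomal RNA. Polysomal minus total RNA was -3.31 ± 0.34 in dormant seeds against -0.79 ± 0.30 in non-dormant ones, a difference between them of -2.52 ± 0.46 (limma adjusted p = 0.0458). AT5G09820 had -0.98 ± 0.23 in dormant seeds against 0.73 ± 0.20 in non-dormant ones, a difference of -1.71 ± 0.31 with the same adjusted p. Both limma calls were near the threshold: without 1 array in turn FLA2 was still called in 2 of 11 fits (highest adjusted p = 0.26, without polysomal array 1 of dormant seeds) and AT5G09820 in 1 of 11 (highest adjusted p = 0.352, without polysomal array 2), and 0 were called on the arrays of the 4 groups alone, after median centring, or after quantile normalization over all arrays or within RNA type.

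Between water and cordycepin limma called 0 of 27827 probe sets in dormant seeds at 24 h, and 939 had an unadjusted p under 0.05. GA3OX2 had a difference of -2.17 in water and -2.46 ± 0.53 in cordycepin, EXT10 -5.75 and -5.39 ± 0.32, and DOG1 -1.21 and -0.32 ± 0.30. A count of 0 does not show that the differences were alike, since each rests on 2 polysomal arrays.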

How the data were processed

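RNA of seeds was measured on arrays, 1 per sample. The log2 levels were made and deposited by the authors with RMA, per the submitters' processing notes, where it stands without a version. The array type and the definition of the probe sets are not stated in the labels. The values were used as deposited. No column of values was left unmapped (0 columns).

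A linear model with 1 mean for each of the 16 groups was fitted to all 45 arrays and 27827 probe sets with limma 3.58.1 in R 4.3.3, with 29 residual degrees of freedom and, for the empirical Bayes step, a prior SD of 0.294 on 6.39 degrees of freedom. From it came polysomal minus total RNA in dormant seeds in water at 24 h, and its difference from the same contrast at 6 h, in non-dormant seeds and in cordycepin. Benjamini-Hochberg adjustment ran over all probe sets at a threshold of 0.05, and every adjusted p is limma's unless said otherwise. The fit was tested on simulated data with 200 changed probe sets. Tables and figures were made with the R package data.table (version 1.17.8), Python 3.11.15, pandas 2.3.3 and matplotlib 3.10.9. A replicate is a bulk of plants; whether bulks were grown apart is not stated, so p-values measure the spread between these samples, which may be technical.

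Genes named were the 12 largest called rises and the 12 largest called falls with a symbol, a mean of at least 5 and no overlap, DOG1, up to 4 members of each list with the largest absolute difference, and up to 5 called probe sets in each direction of the other contrasts. Other called list members, loci without a symbol and members of the extensin, FLA, AGP and noncoding classes were named after their values were seen. The members and lists were chosen with earlier results of these data known. Names came from RefSeq for TAIR10.1, where 27241 probe sets matched and 10559 had a symbol. Besides the overlaps given above, AT3G09800, EXT3, FLA11, U6acat, AT5G13225, KS, AT2G04400, LHCB3, MAN5, MAN6 and TT12 each overlap another annotated locus there. Alternatives were other normalizations, a filter at a mean of 4, other variance models, array weights, a replicate block, fewer arrays and leaving out each array. No outlier test was run, since the groups hold 2 or 3 arrays. A planned comparison with protein length was not run, because no protein table was used here.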

Additional observations from a re-analysis of the deposited data

Results flagged for a closer look

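In dormant seeds in water, 10 probe sets had a polysomal minus total RNA difference at 24 h that limma told from the one at 6 h, over all probe sets tested. The change, 24 h minus 6 h on the log2 scale, was 2.31 for AT1G50110, 2.3 for AT3G62050, 2.14 for AT1G32190 and 2.14 for AT2G24310. It was 2.08 for AGP31, 2.04 for GRP18, 1.98 for AT3G22121 and 1.56 for SMXL5. It was -2.21 for AT1G61610 and -2.16 for AT1G69900. The calls were not equally stable when each of 11 arrays was left out in turn: AT1G61610, AT1G69900, AT2G24310, AT3G62050 and GRP18 were still called in 10 of 11 fits, AGP31 in 7, AT3G22121 in 6, SMXL5 in 5, AT1G50110 in 3 and AT1G32190 in 2. AT2G24310 and AT3G22121 overlap other annotated loci.

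Between dormant and non-dormant seeds in water at 24 h, 2 probe sets had polysomal minus total RNA differences that limma told apart. The dormant minus non-dormant value was -2.52 for FLA2 and -1.71 for AT5G09820. FLA2 was still called in 2 of 11 fits that left out 1 array, and AT5G09820 in 1, and neither was called after median centring, quantile normalization or on the compared arrays alone.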

How the results depend on the processing

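For polysomal against total RNA in dormant seeds at 24 h, limma called 4607 probe sets, 2143 higher and 2464 lower. Centring each array on its median gave 7105, of which 5380 were higher, and the median of all probe sets moved to 0.29 from 0.06. The arrays of the compared groups alone gave 2591 calls, 726 higher and 1865 lower, so 28.0% of calls were higher. Probe sets with a mean of at least 4 gave 2189 higher and 1168 lower (65.2% higher). Leaving out 1 array gave 2187 to 3921 calls, 706 to 1729 higher and 1321 to 2192 lower.

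Of the 24 h minus 6 h calls (10, of them 8 higher and 2 lower), array weights gave 6 with 4 higher, the mean filter 6 with 5 higher and 1 lower, quantile normalization over all arrays 4 higher and 4 lower, and the arrays of the compared groups alone 0 in either direction. Leaving out 1 array gave 3 to 10 calls, 1 to 8 higher and 1 to 2 lower. Of the 2 lower calls for dormant minus non-dormant seeds, 0 were left with quantile normalization over all arrays or within RNA type, median centring, the replicate block over all arrays or the compared arrays alone, and 1 with trend and robust estimation. Leaving out 1 array gave 0 to 3. For water minus cordycepin the count of 0 became 0 to 1 in either direction when 1 array was left out.

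The replicate numbers were not taken to pair polysomal and total RNA: same-numbered arrays had correlations of deviations of 0.0056 and 0.048 in this group, and of 0.027, 0.094 and 0.301 in non-dormant seeds at 24 h, where only the last was over 0.1. With the replicate block over all arrays the calls were 4820, and within each RNA type 4587. Over 206 single-gene results and 3286 comparisons with an alternative, 2781 kept direction and side of the threshold, 445 lost the call, 60 gained one and 0 turned direction. The 3 alternatives for protein length were not run. Medians of lists stand on the deposited scale, and most of the highest counts of members called higher come from median centring. The cause of these shifts was not tested. Having 2 polysomal arrays limits all of the above, and the low levels of many lower probe sets lie near the bottom of the array scale.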

Other observations

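Calls that were not shared with the other groups were 446 higher (20.8% of those called higher here) and 385 lower (15.6%), each called in none of the other 3 comparisons of polysomal with total RNA; that these differ between groups was not tested by this count. Among 77 AGAMOUS-like MADS-box genes, a family chosen after AGL51 and AGL78 were seen to be low on polysomes, 2 were higher and 7 lower, and the family's median was 0.13, against 0.06 for all probe sets. Among 174 probe sets annotated as microRNA loci, 8 were higher and 7 lower, with a median of 0.09. Pseudogenes that share no values with an organelle probe set gave 6 lower and 0 higher of 11, with a median of -1.69.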
